A study of Mus musculus with 6 samples.

Results

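The doublecortin family was described here in preSC cells, together with 2 genes that mark tuft cells. The set held 6 genes of the 23284 in the count files. Dclk1, Dclk2, Dclk3 and Dcx are called the family here, and other genes with a doublecortin domain are described apart. Avil and Pou2f3 were added to show whether a higher level of Dclk1 came with a tuft-like state. The set was chosen by the measured difference of Dclk1, whose reads were higher in cells with Crebbp hairpins, so that difference between the groups is given below as a description without a test, and the differences of the other 5 genes are treated in the same way. Reads were sufficient for the fit over all genes in 4 of the 6 (Dclk1, Dclk2, Dcx and Avil), while Dclk3 and Pou2f3 fell under the filter on low counts.

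The preSC line is a mouse line of precursor cells of small cell lung cancer (SCLC), per the labels. Every library came from cells transduced with a lentiviral pLKO.1-TRC vector. Of the 3 control libraries, 2 held the empty vector (shEmpty, controls 1 and 2) and 1 the non-silencing hairpin named shNS (control 3). The 3 knockdown libraries (group shCrebbp) each carried 1 of 3 different hairpins against Crebbp, numbered 1, 2 and 5, and are called by these numbers. The labels give no genotype, culture or day for a library, so the spread between libraries may be technical, and among hairpins it also holds differences between the hairpins. Crebbp, which encodes the histone acetyltransferase CBP, stood at 66.2 to 69.6 CPM (normalised counts per 1000000 gene reads, with TMM scaling) in controls and at 46.2 to 58.3 CPM with hairpins. It was highest among the hairpins with hairpin 2, at a log2 ratio to the control mean of -0.23, against -0.57 and -0.48 with hairpins 1 and 5. Between the groups Crebbp had a log2 fold change of -0.42 ± 0.10 (SE). Its adjusted p of 0.0999 in edgeR was above the threshold of 0.05, so the lower Crebbp level was not itself a call. Libraries held between 13622020 and 19804949 gene reads.

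Doublecortin proteins bind along microtubules and stabilise them, and are best known from migrating young neurons, in which loss of DCX leaves the cortex smooth. DCX itself has no kinase domain. DCLK1, DCLK2 and DCLK3 carry a serine/threonine kinase domain related to the calcium/calmodulin-dependent kinases, and DCLK1 is also made from a start site inside the gene as a short form that keeps the kinase and lacks the doublecortin domains. In gut and airway epithelium Dclk1 marks tuft cells, rare chemosensory cells whose identity depends on the transcription factor Pou2f3 and which contain the actin-bundling protein advillin (Avil). Pou2f3 also names a tuft-like subtype of SCLC.

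The 2 start sites of Dclk1 bear on how its reads are understood, because a count per gene sums over both. In the RefSeq table (GRCm38.p6) they lie 219.4 kb apart on chromosome 3, both on the plus strand. In the GENCODE M21 annotation of that assembly, coding transcripts within 500 bases of the first site encode up to 756 residues and those near the second up to 452. The windows below run from 250 bases before to 50 bases after each start, 5′ to 3′ in the direction of the gene. They are of the gene that was higher with hairpins (Dclk1) and a family gene that was high with a single hairpin (Dcx). The tuft gene that was lower (Avil) is also shown. Dclk3, also highest with hairpin 2, had no window at hand. Capitals mark a match to any motif searched.
Dclk1, first start, chr3:55242114-55242413, plus strand: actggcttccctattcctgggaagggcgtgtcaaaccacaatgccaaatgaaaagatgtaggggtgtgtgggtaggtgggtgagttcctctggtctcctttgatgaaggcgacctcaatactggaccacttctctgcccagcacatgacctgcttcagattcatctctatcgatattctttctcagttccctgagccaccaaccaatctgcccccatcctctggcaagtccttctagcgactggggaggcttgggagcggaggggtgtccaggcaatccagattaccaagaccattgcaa
Dclk1, second start, chr3:55461478-55461777, plus strand: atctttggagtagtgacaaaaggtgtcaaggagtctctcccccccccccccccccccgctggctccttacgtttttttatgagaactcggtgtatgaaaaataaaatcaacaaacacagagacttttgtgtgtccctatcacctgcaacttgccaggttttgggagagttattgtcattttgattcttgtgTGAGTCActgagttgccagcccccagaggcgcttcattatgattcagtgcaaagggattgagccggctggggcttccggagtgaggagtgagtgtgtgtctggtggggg
Dcx, chrX:143933170-143933469, minus strand: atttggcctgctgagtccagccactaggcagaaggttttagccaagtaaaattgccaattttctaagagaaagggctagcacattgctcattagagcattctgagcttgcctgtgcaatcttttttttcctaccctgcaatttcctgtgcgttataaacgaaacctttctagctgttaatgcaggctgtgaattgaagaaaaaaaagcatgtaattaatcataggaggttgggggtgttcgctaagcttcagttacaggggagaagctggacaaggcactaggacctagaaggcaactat
Avil, chr10:127000459-127000758, plus strand: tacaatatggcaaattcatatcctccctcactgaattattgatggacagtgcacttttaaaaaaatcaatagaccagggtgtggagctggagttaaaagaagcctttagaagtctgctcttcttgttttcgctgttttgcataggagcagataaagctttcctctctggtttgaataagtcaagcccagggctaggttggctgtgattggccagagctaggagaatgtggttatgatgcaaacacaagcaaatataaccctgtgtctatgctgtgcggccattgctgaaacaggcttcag

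RefSeq windows were at hand for 4 of the 6 genes, 6 windows in all, with 2 each for Dclk1 and Dcx (those of Dcx overlap). The motifs were searched on both strands. The full cyclic AMP response element TGACGTCA, bound by the CBP partner CREB, was in none of the 6 windows and in 1.79% of all 32851 windows of this length. Its shorter form TGACG, which the full element contains, was in none of the 6 and in 20.8% of all windows. The octamer ATGCAAAT of POU factors was in none of the 6 and in 1.74% of all windows. The AP-1 element TGAGTCA, which was added to the search after the sequences had been read, was in 1 of the 6, the second start of Dclk1, from 59 to 53 bases before the start, and in 5.20% of all windows. The Dclk1 windows had a GC content of 52.7% and 50.3%, near the median of 52.7% over all windows, and held 5 and 6 CG pairs. The Dclk2 window had 61.3% GC and 27 CG pairs, and those of Avil and Dcx printed above had 43.0% GC each with 2 and 3 CG pairs. These are matches of letters, and the libraries do not show which start site was in use.

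Dclk1 was higher with every hairpin than in every control. It stood at 11.2, 14.5 and 17.5 CPM in controls 1, 2 and 3 (220, 238 and 240 reads). With hairpins 1, 2 and 5 it stood at 35.9, 43.0 and 37.2 CPM (489, 604 and 546 reads). The lowest hairpin library lay 18.4 CPM above the highest control, and the 3 hairpins were close to one another. A gene listed for a call in this contrast tends to have a small spread within groups, so nothing is read from that closeness. Group means were 14.4 ± 3.14 and 38.7 ± 3.79 CPM (SD, n = 3 each), 2.69-fold apart (log2 fold change 1.43 ± 0.17, SE). The hairpin libraries differed from the control mean by 1.33, 1.59 and 1.38 on the log2 scale for hairpins 1, 2 and 5, while single controls differed from it by between -0.33 and 0.30. Dclk1 was 1 of 37 genes called higher in edgeR, which is 0.276% of the 13390 tested, and it was listed for that reason. In bulk RNA a change in how many cells make a transcript and a change in the amount per cell cannot be told apart.

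Among the controls Dclk1 was highest in the shNS library. At 17.5 CPM it exceeded the mean of the 2 shEmpty libraries, 12.9 CPM, by 0.45 ± 0.22 (SE) on the log2 scale, in a fit that takes the spread of the single shNS library from the other groups. That contrast was not used to choose the gene, and it did not pass over all genes (edgeR unadjusted p = 0.0789, adjusted p = 0.9996). For Dclk2, Dcx and Avil the shNS library differed from shEmpty by 0.05 ± 0.15, -0.59 ± 0.93 and -0.14 ± 0.31 (adjusted p = 0.9996 for each). Between the 2 kinds of control edgeR called 0 of 13390 genes (0%), with 100 at an unadjusted p under 0.05. DESeq2 called 0 and limma-voom 0.

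**Figure D1:**
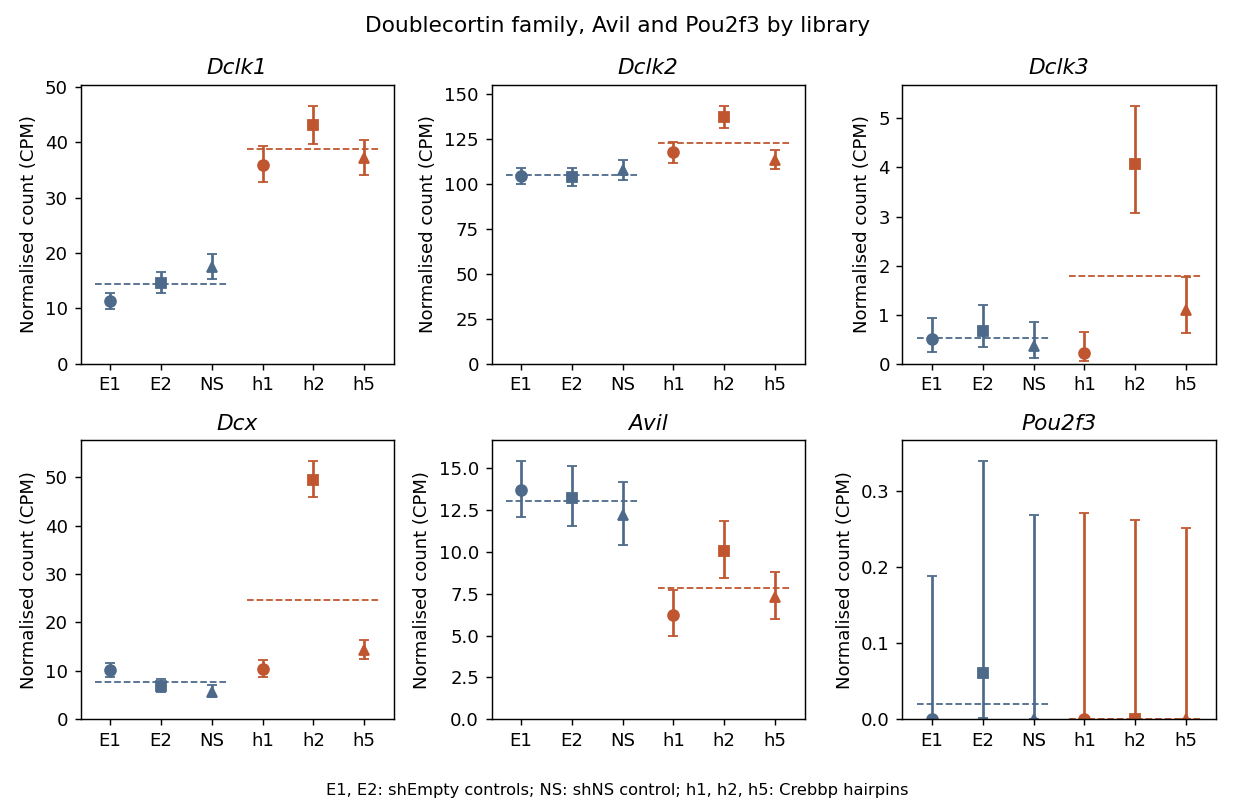
Normalised count (CPM) of the 6 genes in each library, in panels with separate axes that start at 0. Bars are exact 95% Poisson intervals of the counting error and dashed lines are group means. Dclk1 lies at 11.2 to 17.5 CPM in controls and 35.9 to 43.0 CPM with hairpins, Dcx and Dclk3 are highest with hairpin 2, Avil is lower with hairpins, and Pou2f3 has 1 read in all.

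Dclk2, the closest relative of Dclk1 with the same domains, was the most abundant member and differed little between groups. It stood at 104, 104 and 108 CPM in controls 1, 2 and 3. With hairpins 1, 2 and 5 it stood at 118, 137 and 114 CPM. All hairpin libraries lay above all controls, by 5.92 CPM at the narrowest. Group means were 105 ± 2.0 and 123 ± 12.8 CPM (SD, n = 3 each), with a log2 fold change of 0.22 ± 0.09 (SE), and hairpin 2 was the highest of the 6 libraries. For every 100 Dclk2 reads there were 10.8, 14.0 and 16.3 Dclk1 reads in controls 1, 2 and 3. With hairpins 1, 2 and 5 there were 30.5, 31.3 and 32.7. Dclk1 was listed for its difference between the groups, so nothing is read from how alike this ratio was among the hairpins.

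Dcx, the founding member without a kinase domain, was high with a single hairpin. It stood at 10.2, 6.95 and 5.69 CPM in controls 1, 2 and 3 (199, 114 and 78 reads). With hairpins 1, 2 and 5 it stood at 10.3, 49.5 and 14.2 CPM (140, 695 and 209 reads). Hairpin 1 was level with control 1, their exact 95% Poisson intervals being 8.65 to 12.1 and 8.80 to 11.7 CPM. Hairpin 5 lay 1.40-fold above the highest control, and hairpin 2 lay 3.48-fold above hairpin 5, the next library. The log2 fold change over the groups was 1.69 ± 0.56 (SE), and without hairpin 2 it was 0.67. A gap between hairpin 2 and the next library as large as that of Dcx was seen in 35 of the 13390 tested genes, Dcx included (0.261%). At least a 2-fold gap was seen in 131 genes (0.978%) with hairpin 2, in 55 (0.411%) with hairpin 1 and in 5 (0.0373%) with hairpin 5. There is 1 library of each hairpin, so these gaps have no replicate check.

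Dclk3, the third kinase of the family, followed the same order of hairpins at a much lower level. It had 10, 11 and 5 reads in controls 1, 2 and 3, or 0.511, 0.671 and 0.365 CPM. With hairpins 1, 2 and 5 it had 3, 57 and 16 reads, or 0.220, 4.06 and 1.09 CPM. The exact 95% Poisson interval with hairpin 2 was 3.08 to 5.26 CPM, above the upper limits of all other libraries, the highest of which was 1.77 CPM with hairpin 5. Hairpin 1 was below all controls by value, but its interval (0.0455 to 0.644 CPM) overlapped theirs. The ratio of hairpin 2 to the next library was 3.73, similar in size to that of Dcx. These intervals cover counting error only.

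**Figure D2:**
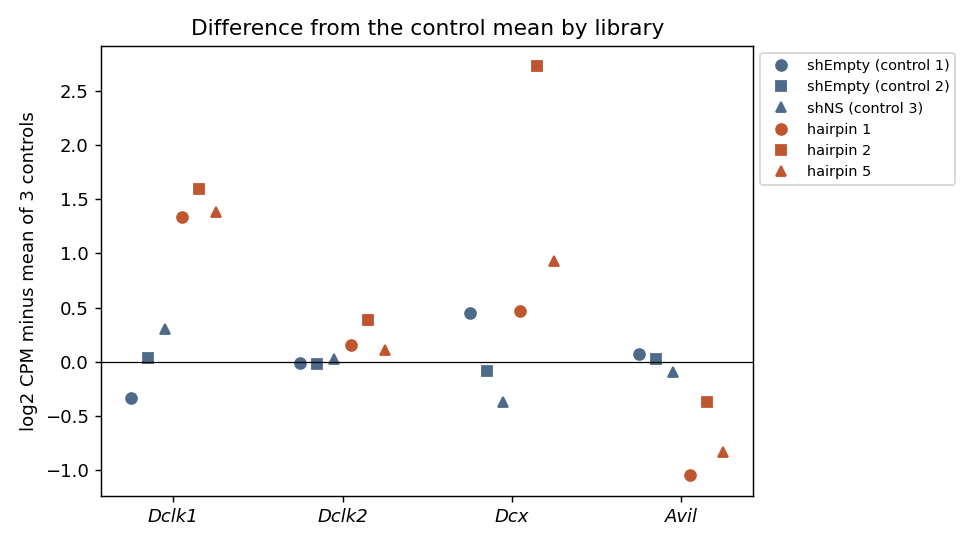
Log2 CPM minus the mean of the 3 controls for the 4 genes that passed the filter, one point per library. The hairpins lie between 1.33 and 1.59 for Dclk1 and between 0.11 and 0.38 for Dclk2, spread from 0.47 to 2.72 for Dcx, and lie between -1.04 and -0.37 for Avil.

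Per length the family was made up mostly of Dclk2. CPM per kilobase (RPKM) was taken over the merged exons of each gene in GENCODE M21, so it depends on that annotation. In controls the order was Dclk2 (9.98 ± 0.189 RPKM), Avil (3.84 ± 0.227), Dclk1 (0.943 ± 0.205), Dcx (0.601 ± 0.182) and Dclk3 (0.172 ± 0.0509; SD, n = 3 each), with Pou2f3 at 0.00658 RPKM. Single controls of Dclk1 (0.735 to 1.15 RPKM) and Dcx (0.450 to 0.804 RPKM) overlapped at this length, and control 1 had slightly more Dcx than Dclk1. With hairpins the order was Dclk2 (11.6 ± 1.21 RPKM), Dclk1 (2.53 ± 0.248), Avil (2.31 ± 0.578), Dcx (1.95 ± 1.71) and Dclk3 (0.596 ± 0.670), and single libraries of Dclk1, Avil and Dcx overlapped. The order of the lower members depended on the length. With the length of the longest transcript, an alternative chosen after seeing the data, Dclk1 averaged 1.81 RPKM in controls and 4.86 RPKM with hairpins, and its controls (1.41 to 2.20 RPKM) lay above those of Dcx (0.627 to 1.12 RPKM). At that length the hairpin libraries of Dclk1 (4.51 to 5.40 RPKM) also lay above those of Avil (2.06 to 3.31 RPKM). The mean of Dcx (2.72 RPKM) came before that of Avil (2.59 RPKM), an order that rested on hairpin 2. With hairpins 1, 2 and 5 Dcx stood at 1.13, 5.46 and 1.57 RPKM. Avil stood at 2.06, 3.31 and 2.40 RPKM.

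The 4 family genes together had 11.6, 11.6 and 11.9 RPKM in controls 1, 2 and 3. With hairpins 1, 2 and 5 the sum was 14.4, 21.1 and 14.7 RPKM. Dclk1 made up 8.04 ± 1.64% of the family in controls and 15.4 ± 1.8% with hairpins, while Dclk2 went from 85.3 ± 0.237% to 70.8 ± 8.17% (SD, n = 3 each). With hairpin 2 Dcx took 18.5% of the family and Dclk1 13.3%, and with the longest transcript as length they were level at 18.6% and 18.4%. In the other 5 libraries Dcx took between 3.78% and 7.66%.

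**Figure D3:**
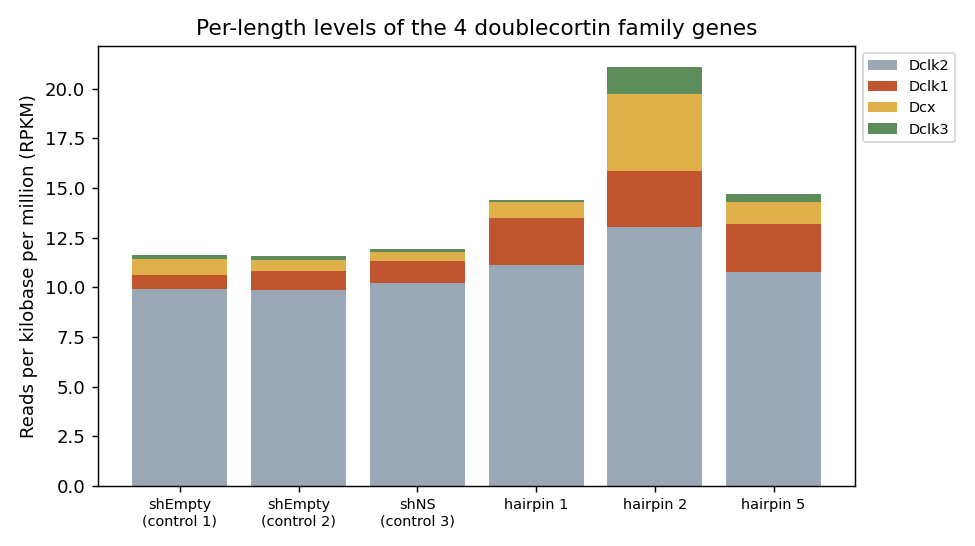
Stacked bars of per-length levels (RPKM) of Dclk2, Dclk1, Dcx and Dclk3 in each library. Dclk2 is the largest part of every bar, the Dclk1 part is larger in the 3 hairpin libraries, and the bar of hairpin 2 reaches 21.1 RPKM with the largest Dcx part.

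Of the 2 tuft genes, Pou2f3 was at or near 0 in every library and Avil was lower with hairpins. Pou2f3, the transcription factor that tuft cells depend on, had 1 read in control 2 and none in the other 5 libraries. A floor of 3 reads corresponds to 0.153 CPM in control 1, 0.219 CPM in control 3 and 0.204 to 0.220 CPM in the hairpin libraries. The exact 95% Poisson intervals plotted for these libraries are wider, reaching 0.188 CPM in control 1, 0.269 CPM in control 3 and 0.251 to 0.271 CPM with hairpins. Avil stood at 13.7, 13.2 and 12.2 CPM in controls 1, 2 and 3. With hairpins 1, 2 and 5 it stood at 6.25, 10.04 and 7.28 CPM, all below the controls. Group means were 13.0 ± 0.770 and 7.86 ± 1.96 CPM (SD, n = 3 each), a log2 fold change of -0.73 ± 0.19 (SE), or a level 1.66-fold lower. Hairpin 2, which had the most Dclk1, was the hairpin library with the most Avil. Of the 4 members tested, Dclk1, Dclk2 and Dcx (by only 0.12 CPM) thus had all hairpins above all controls and Avil had them all below. Over all tested genes these separations were seen in 11.4% and 11.0%, and nothing is read from the members' count because the same contrast led to the list.

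The wider tuft cell list was mostly under 1 CPM. Of 28 listed genes 27 were in the files, 13 of these had at most 3 reads in any library, and 7 passed the filter. Of 6 genes taken as defining (Trpm5, Gnat3, Plcb2, Il25, Il17rb and Gfi1b), 5 had at most 3 reads in any library. Il17rb, a receptor for interleukin 25, averaged 0.343 CPM in controls against 0.238 CPM with hairpins. The list itself did not mark these 6 apart, and the 7 tested genes lay outside them. The 7 tested genes had 3 positive and 4 negative fold changes (46.8% negative over all tested genes). Their median log2 fold change was -0.32, against 0.01 over all tested genes. edgeR called 0 of the 7 (1.25% of all tested genes), with 0 higher and 3 lower at an unadjusted p under 0.05 (7.99% and 8.46% of all genes). DESeq2 called 1 lower (Matk), as it did 3.23% of all tested genes, and limma-voom called 0. Matk, a tyrosine kinase gene, stood at 11.9 ± 0.562 CPM in controls against 7.12 ± 1.33 CPM with hairpins (edgeR adjusted p = 0.0948). Vil1, which encodes the actin-bundling protein villin, stood at 20.3 ± 1.46 and 16.2 ± 0.605 CPM (adjusted p = 0.211). The most abundant genes of the list, Kctd12 (398 ± 70.9 and 291 ± 76.5 CPM) and Hepacam2 (33.8 ± 6.97 and 34.8 ± 7.78 CPM), are not restricted to tuft cells. They dominated the summed level of the list, which was 417 to 545 CPM in controls and 295 to 444 CPM with hairpins.

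**Figure D4:**
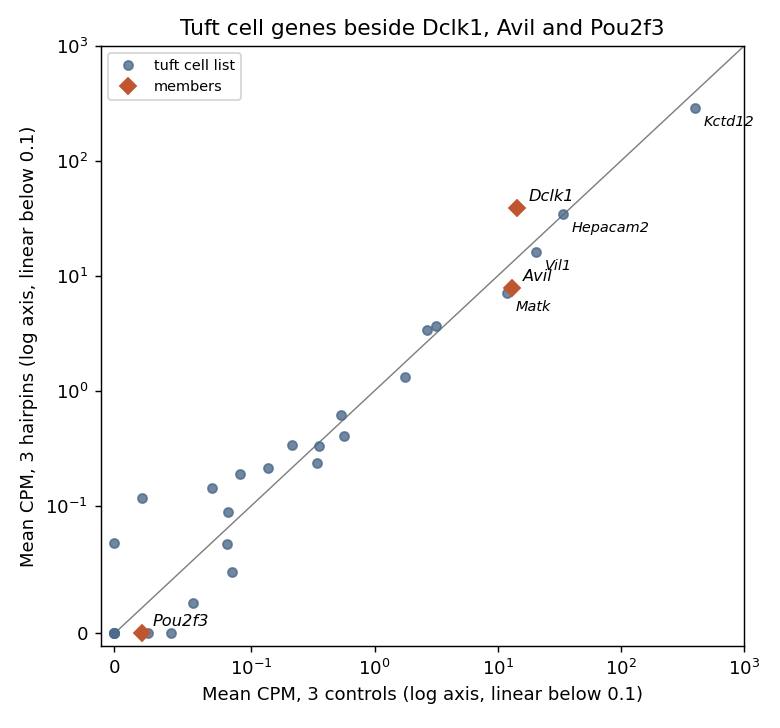
Mean CPM of the 27 tuft cell genes and of Dclk1, Avil and Pou2f3 in controls (horizontal) and with hairpins (vertical), both on a log axis that is linear below 0.1. Dclk1 lies above the line of equal levels (14.4 and 38.7 CPM), Avil and Matk lie below it, and most tuft genes lie under 1 CPM in both groups.

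Neuroendocrine genes were read at high levels and markers of other cell types mostly at low ones, apart from the stromal gene Dcn. All 10 neuroendocrine markers passed the filter, 4 with positive and 6 with negative fold changes (46.8% negative over all tested genes). Their median log2 fold change was -0.09, against 0.01 over all tested genes. edgeR called 0, with 0 higher and 4 lower at an unadjusted p under 0.05 (7.99% and 8.46% of all genes), and DESeq2 and limma-voom each called 1 lower (3.23% and 0.956% of all genes), which was Calca. Calca, the calcitonin and CGRP gene, ranged over 1592 to 2010 CPM in controls and 632 to 1161 CPM with hairpins (edgeR adjusted p = 0.0558). Ddc, which encodes dopa decarboxylase, averaged 981 ± 41.6 and 1015 ± 127 CPM (adjusted p = 0.873). Neurod1, which names a neuroendocrine subtype of SCLC, averaged 1.15 ± 0.369 and 1.41 ± 0.744 CPM (edgeR adjusted p = 0.823). Yap1, a coactivator linked to non-neuroendocrine SCLC, averaged 9.92 ± 1.21 and 6.75 ± 0.625 CPM (adjusted p = 0.163). Of 10 leukocyte markers, a cell type that shares several tuft genes, 6 had at most 3 reads in any library. Their summed level was 3.83 to 6.28 CPM in controls and 4.49 to 5.88 CPM with hairpins, mostly Cd68 (4.05 ± 1.30 and 3.93 ± 0.399 CPM) and Lyz2 (0.446 ± 0.0736 and 0.769 ± 0.528 CPM). Stromal markers summed to 38.7 to 46.1 CPM in controls and 14.6 to 64.0 CPM with hairpins. Most of this was Dcn (39.1 ± 3.98 and 35.0 ± 25.3 CPM), followed by Pdgfra (1.33 ± 0.241 and 1.76 ± 0.966 CPM), while Col3a1 had no reads.

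Genes of newly formed neurons, in which Dcx is a standard marker, were mostly higher with hairpins by sign, and most of all with hairpin 2. Of 20 listed genes 14 were tested, 13 with a positive and 1 with a negative fold change (46.8% negative over all tested genes). The median log2 fold change of the 14 was 0.43, against 0.01 over all tested genes. In edgeR 0 passed over all genes, with 6 higher and 0 lower at an unadjusted p under 0.05 (7.99% and 8.46% of all genes). limma-voom called 0 (0.232% of all tested genes were called higher), and DESeq2 called 5 higher (Ncam1, Elavl2, Elavl3, Gap43 and Dpysl3), against 2.20% of all tested genes. Elavl3 and Elavl2, which encode neuronal RNA-binding proteins, stood at 332 ± 15.3 and 77.1 ± 11.1 CPM in controls and at 489 ± 87.9 and 146 ± 45.3 CPM with hairpins (edgeR adjusted p = 0.0822 and 0.0829). The summed level of the list was 1748 to 1998 CPM in controls and 2086 to 2938 CPM with hairpins.

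By hairpin, the median log2 ratio of the immature neuron genes to the control mean was 0.31, 0.71 and 0.17 for hairpins 1, 2 and 5. Over all tested genes it was 0.005 for each hairpin. For the same list it was -0.15, 0.01 and 0.15 in controls 1, 2 and 3, so hairpin 5 lay close to control 3. Hairpin 2 had the highest level of the 3 hairpins in 11 of the 14 genes, as it did in 35.6% of all tested genes. Among genes of the list, 3 had a level with hairpin 2 at least 2-fold above every other library (0.978% of all tested genes): Gap43, Dpysl3 and Rbfox3, which were singled out after their values were seen. Rbfox3, a marker of mature neurons, had 14, 36 and 54 reads in controls 1, 2 and 3 and 27, 343 and 17 reads with hairpins 1, 2 and 5, so that it was high with hairpin 2 alone. Gap43, an axon growth protein gene, had 13, 20 and 24 reads in the controls and 37, 163 and 54 with hairpins 1, 2 and 5. Dpysl3, which encodes a collapsin response mediator, had 25, 43 and 34 reads in the controls and 140, 335 and 61 with the hairpins.

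**Figure D5:**
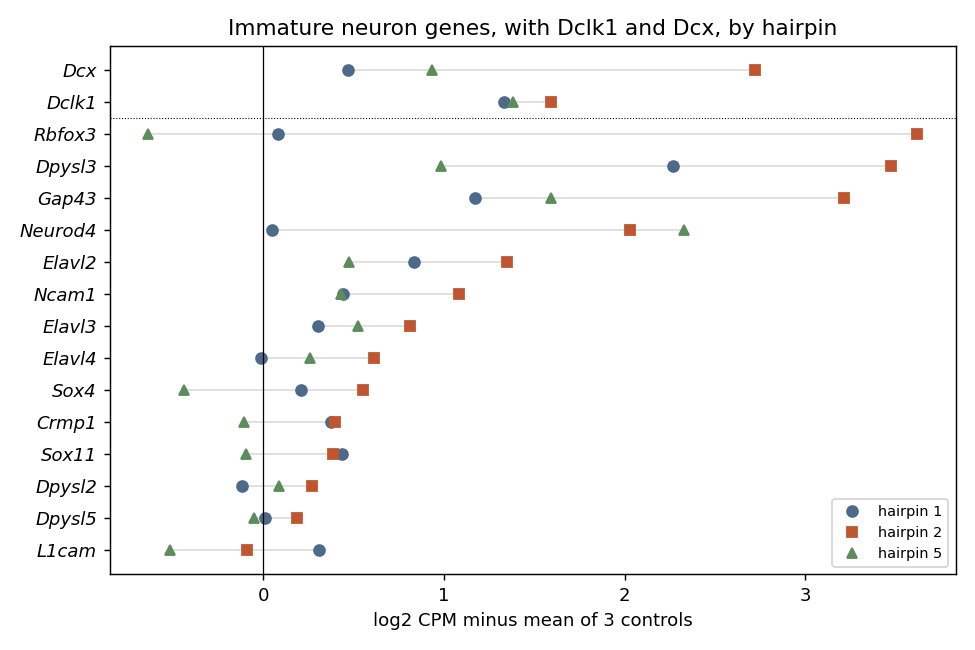
Log2 CPM minus the mean of the 3 controls for the 14 tested immature neuron genes (below the dotted line) and for Dclk1 and Dcx, one point per hairpin. Hairpin 2 lies farthest to the right in 11 of the 14 genes and in both Dclk1 and Dcx. The 3 hairpins are much closer together for Dclk1, which was listed for its call between the groups, than for Dcx.

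Genes of other proteins that bind microtubules or, like the stathmins, free tubulin were mostly a little higher by sign. Of the 25 tested structural microtubule-associated protein genes 20 had positive and 5 negative fold changes (46.8% negative over all tested genes). Their median log2 fold change was 0.12, against 0.01 over all tested genes. edgeR and limma-voom called 0, and 9 were higher and 3 lower at an unadjusted p under 0.05 in edgeR (7.99% and 8.46% of all genes). DESeq2 called 4 higher (Mtap2, Mapt, Stmn2 and Stmn4), against 2.20% of all genes. Stmn2, a neuronal stathmin that binds free tubulin, had 14, 42 and 66 reads in controls 1, 2 and 3 and 107, 839 and 194 reads with hairpins 1, 2 and 5 (log2 fold change 3.37 ± 0.87, edgeR adjusted p = 0.108), the same order of hairpins as Dcx and Dclk3 with hairpin 2 on top. Mapt, the tau gene, stood at 45.8 ± 2.05 and 57.8 ± 3.22 CPM (adjusted p = 0.110). Stmn2 and Stmn4 were the 2 genes of the list at least 2-fold higher with hairpin 2 than in every other library, a gap seen in 0.978% of all tested genes, and they were singled out after their values were seen.

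The neuronal migration and lissencephaly list holds the LIS1, dynein, tubulin and reelin pathway genes. Fold changes were positive in 18 of its 24 tested genes and negative in 6 (46.8% negative over all tested genes). Their median log2 fold change was 0.14, against 0.01 over all tested genes. edgeR and limma-voom called 0, with 7 higher and 0 lower at an unadjusted p under 0.05 in edgeR (7.99% and 8.46% of all genes). DESeq2 called 2 higher, Eml1 and Tuba1a, against 2.20% of all genes. Eml1, a microtubule-binding protein gene mutated in neuronal heterotopia, stood at 21.8 ± 2.48 CPM in controls against 33.0 ± 0.951 CPM with hairpins (log2 fold change 0.59 ± 0.11, edgeR adjusted p = 0.0532). Tuba1a, an alpha tubulin gene of young neurons, stood at 467 ± 26.1 and 696 ± 135 CPM (0.58 ± 0.14, adjusted p = 0.0972). Reln itself had at most 1 read in a library.

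Kinases related to the DCLK kinase domain, listed together with the kinase inhibitor gene Camk2n1, had fold changes of both signs. Of the 17 tested calcium/calmodulin-dependent kinase genes and relatives, 11 had positive and 6 negative fold changes (46.8% negative over all tested genes). Their median log2 fold change was 0.06, against 0.01 over all tested genes. edgeR and limma-voom called 0, with 3 higher and 3 lower at an unadjusted p under 0.05 in edgeR (7.99% and 8.46% of all genes). DESeq2 called 1 higher (Camk2b) and 2 lower (Dapk2 and Camk1d), against 2.20% and 3.23% of all genes. Dapk2, a death-associated protein kinase gene, stood at 66.5 ± 1.90 CPM in controls against 45.6 ± 7.66 CPM with hairpins (edgeR adjusted p = 0.0834), and Camk1d at 87.4 ± 9.96 and 57.1 ± 10.5 CPM (adjusted p = 0.0877). Of the other genes with a doublecortin domain, 5 were in the files. The photoreceptor genes Rp1 and Rp1l1 had no reads, and Dcdc2b had at most 7. Dcdc2a, a gene of cilia and neuronal migration, stood at 10.1 ± 2.26 and 11.9 ± 5.62 CPM (adjusted p = 0.799), and Dcdc2c at 7.84 ± 0.288 and 7.43 ± 0.661 CPM (adjusted p = 0.873).

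The genes next to Dclk1 on chromosome 3 differed less or were hardly read. Among the 5 nearest genes on each side that the files hold, in the order of the RefSeq table, 3 were tested. Of these edgeR called 0 (1.25% of all tested genes), with 1 at an unadjusted p under 0.05 (16.5% of all tested genes). Nbea, the immediate neighbour on one side, which encodes the trafficking protein neurobeachin, stood at 101 ± 14.2 CPM in controls against 99.4 ± 7.81 CPM with hairpins (log2 fold change -0.03 ± 0.12, adjusted p = 0.946). Spg20, the spartin gene, differed by 0.02 ± 0.13 on the log2 scale (adjusted p = 0.964). Ccna1, a cyclin gene, stood at 8.69 ± 1.40 and 4.92 ± 1.82 CPM, a log2 fold change of -0.82 ± 0.28 (adjusted p = 0.196). The other 7 had at most 13 reads in any library, Sohlh2, the immediate neighbour on the other side, at most 2.

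The genes whose log2 CPM followed Dclk1 most closely over the 6 libraries differed less in size, with log2 fold changes of 0.21 to 0.49. Over 10606 ranked genes (mean log2 CPM of 2 or more) Pearson's r with Dclk1 was highest for Slc25a12 (0.998), Clip3 (0.997), Fchsd1 (0.997), Il17d (0.996) and Cacng4 (0.995). It was lowest for Mapk13 (-0.998), Ifitm3, Kcnh3, Tgfb3 and Hk1 (-0.996 to -0.995). All 10 had hairpin libraries wholly on one side of the controls, so that r largely restates the split into groups. Clip3, which encodes a cytoplasmic linker protein, stood at 122 ± 5.99 CPM in controls against 151 ± 2.72 CPM with hairpins, and the mitochondrial carrier gene Slc25a12 at 63.1 ± 2.06 and 73.5 ± 1.20 CPM. Of those opposite to Dclk1, Mapk13, a p38 kinase gene, stood at 111 ± 15.3 and 60.7 ± 2.52 CPM, and Ifitm3, an interferon-induced gene, at 14.1 ± 3.16 and 3.59 ± 0.524 CPM. Among the other members r with Dclk1 was 0.84 for Dclk2, 0.68 for Dcx and -0.82 for Avil. Of all tested genes 93.9% had a lower r than Dclk2, 84.9% than Dcx and 6.74% than Avil. The split into groups enters these values too.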

How the data were processed

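Poly(A)-selected RNA of 6 libraries was sequenced, per the labels' protocols. The authors used TopHat2 2.0.12 and HTSeq 0.6.1 with bcl2fastq 1.8.2 and the mouse build mm9, per the submitters' processing notes. The annotation was not given in the sources used here, nor were strand or overlap settings. Each deposited file lists unnormalised read counts by gene symbol. The HTSeq summary rows (24.8% to 28.9% of counts) were left out. Within groups, libraries differed beyond sampling noise. Chi-square over degrees of freedom was 4.08 to 10.9 between controls and 20.4 to 28.4 between hairpins.

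Counts were fitted with edgeR 4.0.16 in R 4.3.3 (TMM, filterByExpr, robust quasi-likelihood test, Benjamini-Hochberg over 13390 genes, threshold 0.05), which was tested on simulated data. Log2 CPM used a prior count of 2. Alternatives were DESeq2 1.42.0, limma-voom (limma 3.58.1), RLE size factors, 2 other filters, prior counts of 0.5 and 5 for Dclk1, and leaving out each library. Members, gene lists and tests were chosen with earlier results of these data known. In each list the genes named were up to 4 that were called, or otherwise the 2 with the smallest p, and in each marker list the 2 most abundant. For Dclk1, the 5 genes most like and the 5 most unlike it were named, leaving out provisional names and pseudogenes, and 5 neighbours on each side. Genes that DESeq2 called, and Rbfox3, Gap43, Dpysl3, Stmn4, Reln and Ddc, were named after their values were seen. Gene lengths and promoter windows are of GRCm38, and the count files hold no coordinates. A gene that this rule would name is not reported here. A floor of 3 reads was 0.153 to 0.220 CPM.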

Additional observations from a re-analysis of the deposited data

How the results depend on the processing

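The log2 fold change of Dclk1 lay between 1.27 and 1.59 over 13 alternatives, that of Dclk2 between 0.13 and 0.27 and that of Avil between -0.95 and -0.59 over 11 each. That of Dcx lay between 0.67 (without hairpin 2) and 2.05. No contrast of shNS with shEmpty passed for a member in 10 alternatives each (lowest adjusted p = 0.999). Where 1 library was left of a kind of control, it was assumed to vary like the other groups. The number of genes called was 727 with DESeq2 against 168, and 0 to 389 with 1 library left out: 0 without control 1, 0 without control 2, 48 without control 3, 368 without hairpin 1, 101 without hairpin 2 and 389 without hairpin 5. DESeq2 called 1 tuft cell gene, 4 microtubule-associated protein genes, 2 migration genes, 3 kinase genes and 5 immature neuron genes, against 0 in edgeR. Without a filter 1 migration gene (Eml1) was called. With 1 library left out, between 0 and 1 microtubule-associated protein gene, 0 and 3 migration genes, 0 and 2 kinase genes and 0 and 3 immature neuron genes were called, each time without hairpin 1 or 5. The cause was not tested. Taking the longest transcript as gene length, an alternative chosen after seeing the data, the family share of Dclk1 was 11.3% in controls and 21.0% with hairpins, and that of Dclk2 in controls was 82.3%. No paired analysis was possible because the labels number only 1 control library, and hairpin numbers name hairpins. At 3 reads per library, differences in Pou2f3 and 13 of the tuft cell genes were not detectable at this depth.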
